A study of Homo sapiens with 15 samples.

Results

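The genes described are 10 receptor tyrosine kinases of glioma: EGFR, ERBB2, PDGFRA, PDGFRB, MET, AXL, FGFR1, KIT, KDR and DDR1. They were taken by symbol, and each occurs once among the 60612 genes of the deposited table. The expression data are bulk RNA-seq of the established human glioma cell lines U251 and U87, with 15 libraries in 5 groups of 3. U251 1812, U251 1813 and U87 1812 are cells stably transfected with a short hairpin RNA against LAMP2A, the LAMP2 splice form at the lysosomal membrane by which chaperone-mediated autophagy takes up its substrates. U251 control and U87 control carry the genotype label WT, and the labels name no control hairpin, so that an effect of stable transfection itself cannot be told apart from an effect of the hairpins. U87 was given 1 of the 2 hairpins, and nothing in the labels says whether a transfected line was 1 clone or a pool.

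Receptor tyrosine kinases span the plasma membrane, bind a ligand outside the cell and phosphorylate tyrosines inside it, from which the RAS-MAP kinase and PI3K-AKT pathways are switched on. After activation they are taken up into endosomes and either recycled or broken down in lysosomes. In glioblastoma EGFR and PDGFRA are known for amplification, MET and AXL for invasion and resistance to therapy, and KDR, the main VEGF receptor, belongs chiefly to the endothelium of tumour vessels.

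Total counts were 14002652 to 18924072 per library. Replicates 2 and 3 of both control groups stood apart: the mean exonic length per count was 6.53 to 6.77 kb in these 4 libraries, against 5.61 to 5.92 kb in the other 11, and the nuclear transcript MALAT1 had 29.16 to 48.56 FPKM, against 3.26 to 11.62 FPKM (FPKM are reads per gene scaled to its exonic length and to the library total). For most results the value against control replicate 1 alone is therefore also given. LAMP2 had 35.4, 34.6 and 36.4 FPKM in U251 1812 and 40.5, 45.1 and 43.3 FPKM in U251 1813, against 71.0, 81.4 and 82.8 FPKM in U251 control. In U87 1812 it had 25.2, 24.5 and 28.4 FPKM, against 18.3, 32.1 and 31.8 FPKM in U87 control. No lower LAMP2 was thus detected in the libraries labelled U87 1812, and every direction given for them rests on that label. The table sums all splice forms, so that LAMP2A itself was not measured separately. The log2 fold change of LAMP2 was -1.12 in U251 1812 (edgeR adjusted p 0.00353), -0.79 in U251 1813 (adjusted p 0.0907) and 0.04 in U87 1812 (adjusted p 0.892), each over the control cells of the line. Against control replicate 1 alone LAMP2 was higher in U87 1812, at 0.45 (adjusted p 0.0215), and lower in U251 1812 at -1.05 and U251 1813 at -0.71 (adjusted p 0.000705 and 0.031). Of 10 glioma and astrocyte markers, 8 reached 1 FPKM in each U251 group and 5 in each U87 group, with vimentin (VIM) the highest and AQP4 at 0 in 4 of the 5 groups. Of 9 endothelial markers, none reached 1 FPKM on average in any group, and their summed level was 0.9 to 1.99 FPKM over all libraries.

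AXL and MET were the most abundant of the receptors in all 5 groups. AXL, a receptor for the vitamin K-dependent ligand GAS6, had 160, 150 and 141 FPKM in U251 1812, 166, 132 and 128 FPKM in U251 1813, and 148, 118 and 113 FPKM in U251 control. In U87 1812 it had 127, 118 and 106 FPKM, against 129, 71.5 and 71.5 FPKM in U87 control. In both control groups replicate 1 was the highest, and it lay within the range of the hairpin libraries or above it. MET, the receptor of hepatocyte growth factor, had 69.5, 66.4 and 67.3 FPKM in U251 1812, 53.1, 60.2 and 59.9 FPKM in U251 1813, and 68.5, 88.1 and 88.7 FPKM in U251 control. It had 35.4, 33.4 and 37.7 FPKM in U87 1812, against 21.1, 56.4 and 58.0 FPKM in U87 control. The hairpin libraries of U87 thus lay between replicate 1 and the other two controls.

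AXL made up 58.7% ± 0.857 of the summed FPKM of the 10 receptors in U251 1812, 59.4% ± 4.76 in U251 1813 and 47.7% ± 6.38 in U251 control (SD, n = 3 each). It made up 63.6% ± 1.95 in U87 1812 and 49.3% ± 17.8 in U87 control (SD, n = 3 each). The share of AXL ran over 38.7% to 69.9% among the U87 control libraries, a range that held the share of every U87 1812 library.

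**Figure D1:**
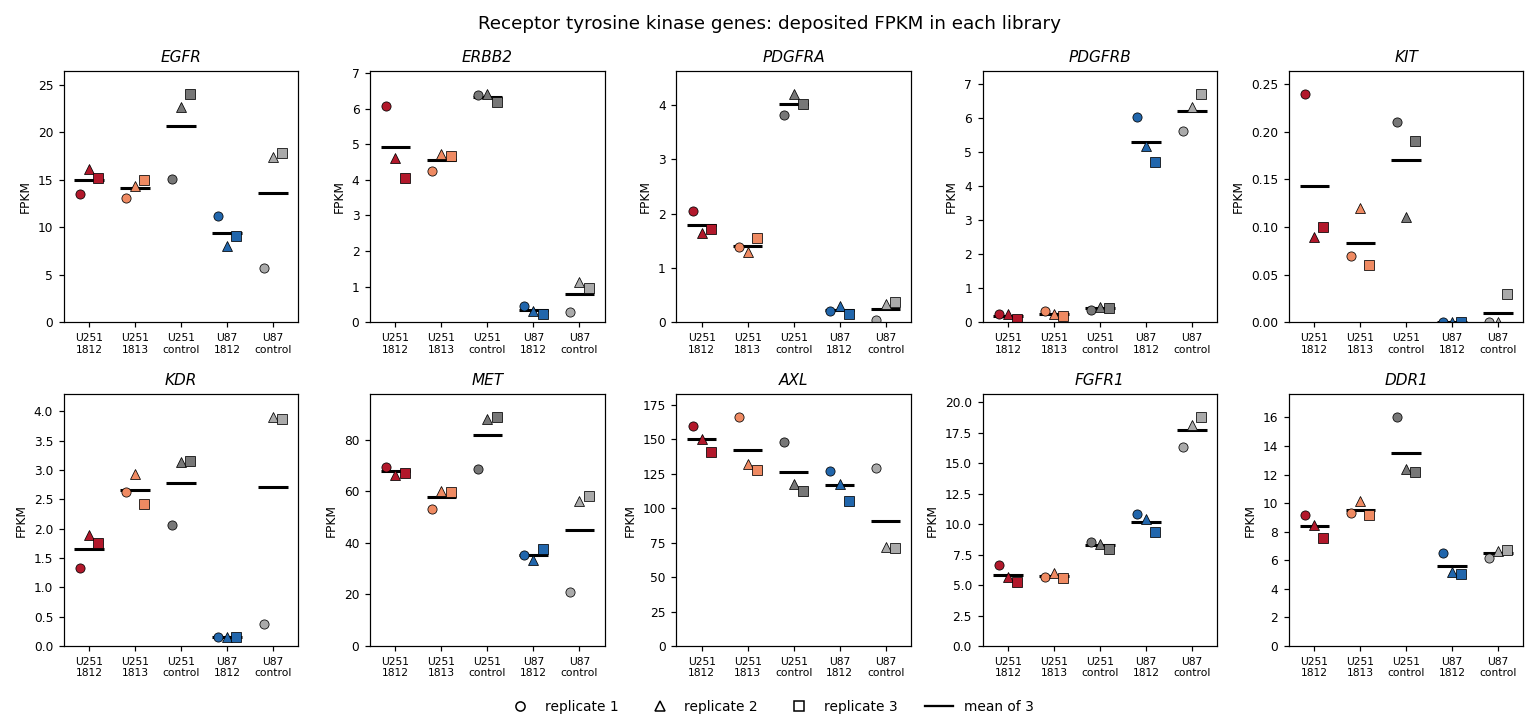
Deposited FPKM (vertical axes, linear, each from 0) of the 10 receptor genes in every library of the 5 groups, with 1 symbol per replicate and a bar at the mean of 3. PDGFRB is high in U87 and low in U251, PDGFRA and ERBB2 are the other way round, and U87 control replicate 1 (circles) lies far from replicates 2 and 3 for EGFR, MET, AXL and KDR.

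Below these 2 receptors the order differed between the lines. In U251 control the means ran EGFR 20.6, DDR1 13.5, FGFR1 8.27, ERBB2 6.33, PDGFRA 4.01, KDR 2.79, PDGFRB 0.41 and KIT 0.17 FPKM, and the libraries of neighbours overlapped for EGFR and DDR1 alone. In U87 control FGFR1 came next at 17.7 FPKM, ahead of EGFR at 13.6, DDR1 at 6.5, PDGFRB at 6.22, KDR at 2.72, ERBB2 at 0.793, PDGFRA at 0.25 and KIT at 0.01 FPKM. There the libraries overlapped between FGFR1 and EGFR, EGFR and DDR1, DDR1 and PDGFRB, KDR and ERBB2, and ERBB2 and PDGFRA. In U251 1812 FGFR1 overlapped with ERBB2, PDGFRA with KDR, and PDGFRB with KIT, while in U251 1813 all neighbours were apart. In U87 1812 KDR stood ninth at 0.157 FPKM, overlapping with PDGFRA at 0.223 FPKM.

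**Figure D2:**
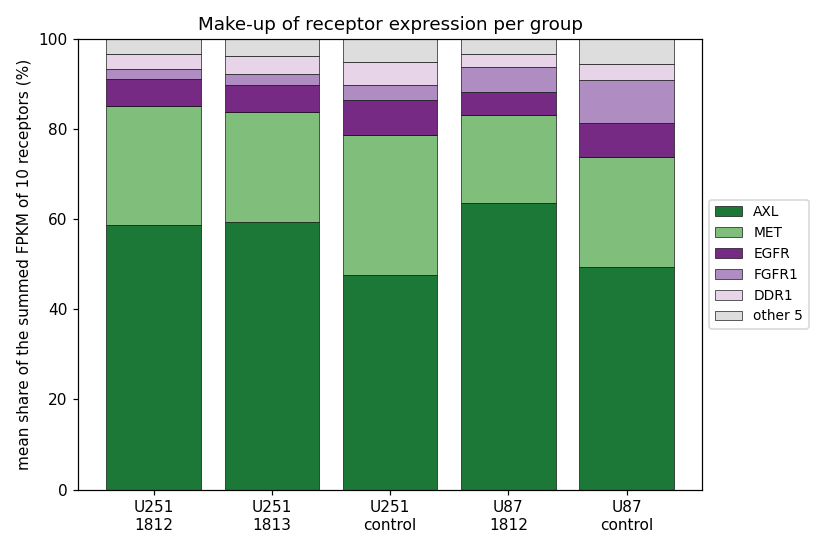
Mean share (vertical axis, percent) of each receptor in the summed FPKM of the 10 genes in each group of 3 libraries. AXL and MET together fill most of each bar, and AXL holds 58.7% in U251 1812, 59.4% in U251 1813, 47.7% in U251 control, 63.6% in U87 1812 and 49.3% in U87 control.

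KIT passed the filter on low counts through the U251 groups alone and is described by its counts further on. Of the other 9 receptors, 6 passed an adjusted p of 0.05 in U251 control over U87 control, 4 higher (ERBB2, PDGFRA, MET and DDR1) and 2 lower (PDGFRB and FGFR1). Of all 16841 genes tested, 50.0% passed in this comparison, 24.0% higher and 26.0% lower. In U251 1812 over U87 1812 the same 6 passed in the same directions, and KDR also passed as higher, where 51.7% of all genes passed, 26.4% higher and 25.3% lower. The 2 comparisons share no library. The median log2 fold change of the 9 receptors was 0.51 between the control groups and 0.48 between the 1812 groups, against -0.04 and 0.02 over all genes tested.

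Of the ERBB family, ERBB2 and EGFR were both higher on average in U251 control than in U87 control. The genes were not tested against each other. ERBB2, the partner kinase of the family that binds no ligand itself (ENSG00000141736, GRCh38 chromosome 17, 39687914 to 39730426), had 6.39, 6.42 and 6.18 FPKM in U251 control, against 0.29, 1.13 and 0.96 FPKM in U87 control. All U251 libraries were above all U87 libraries, and the log2 fold change was 2.92 (SE 0.332, edgeR adjusted p 4.01e-06). Against control replicate 1 alone in both lines it was 4.27. ERBB2 shares its locus with MIEN1 on the other strand, which had 13944 counts over all libraries, against 8193 for ERBB2, and the strand used in counting is not given in the sources used here. EGFR, the founding member of the family (ENSG00000146648, chromosome 7, 55019017 to 55211628), had 15.1, 22.7 and 24.0 FPKM in U251 control, against 5.75, 17.4 and 17.8 FPKM in U87 control. These ranges overlapped and the log2 fold change of 0.51 did not pass (95% interval -0.09 to 1.10, edgeR adjusted p 0.146), while control replicate 1 alone gave 1.19. EGFR passed as higher without the filter on low counts, and with a term for the 4 control libraries that stood apart.

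The platelet-derived growth factor receptors were opposite in the lines. PDGFRA, the receptor that marks glial progenitors (ENSG00000134853, chromosome 4, 54229280 to 54298245), had 3.81, 4.21 and 4.02 FPKM in U251 control, against 0.04, 0.34 and 0.37 FPKM in U87 control. PDGFRB, which is typical of mesenchymal and mural cells (ENSG00000113721, chromosome 5, 150113839 to 150155872), had 0.36, 0.46 and 0.41 FPKM in U251 control, against 5.61, 6.33 and 6.72 FPKM in U87 control. Neither gene's libraries overlapped between the lines. Log2 fold changes were 3.93 for PDGFRA (SE 0.423, edgeR adjusted p 2.3e-06) and -4.04 for PDGFRB (SE 0.238, adjusted p 3.96e-09). With control replicate 1 alone PDGFRA was at 6.23 and PDGFRB at -4.17. Between the 1812 groups the log2 fold changes were 2.79 for PDGFRA and -4.94 for PDGFRB (adjusted p 4.96e-05 and 1.26e-09).

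KIT and KDR lie beside PDGFRA, 360 kb and a further 338 kb along chromosome 4, and the 3 genes span 896 kb. KIT, the stem cell factor receptor (ENSG00000157404, 54657918 to 54740715), was near the detection limit, with 48 counts over the 3 libraries of U251 control, against 3 counts in U87 control. The ratio of these counts scaled to library totals was 14.5 (exact 95% interval 4.66 to 72.6, counting error only). U251 1812 had 35 counts, against 0 in U87 1812, which is at least 13.8-fold higher with a floor of 3 counts over the group, and the exact 95% interval of the ratio starts at 10.6. A count of 0 there allows up to 0.0594 CPM, the count scaled to the library total. KDR (ENSG00000128052, 55078481 to 55125595) had 1.33, 1.89 and 1.76 FPKM in U251 1812, against 0.15, 0.16 and 0.16 FPKM in U87 1812, a log2 fold change of 3.21 (SE 0.589, edgeR adjusted p 0.000345). Between the control groups it had 2.06, 3.14 and 3.16 FPKM in U251 control, against 0.38, 3.90 and 3.88 FPKM in U87 control. That log2 fold change was -0.03 with all controls (edgeR adjusted p 0.964), and with control replicate 1 alone it was 2.22. Without U87 control replicate 1, KDR passed as lower in U251 control, so that its direction depended on the control libraries used.

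The promoters of PDGFRA and PDGFRB are shown because these receptors took opposite sides between the lines. That of KDR is shown because it was higher in U251 in the 1812 cells, while in the control cells its direction depended on the control libraries used. Each run holds 250 bases before and 50 after the gene's start from RefSeq, build GRCh38.p14, on the strand of the gene, and 9 of the 10 receptors have an entry. Capitals mark matches to GGGCGG (the GC box), CCAAT (the CCAAT box), TATAAA (the TATA box), CACGTG (the core bound by TFEB) and TGANTCA, each searched on both strands. TGANTCA is a loose form of the AP-1 site that allows any base at its centre, so that a match need not be an AP-1 site.
PDGFRA promoter, chr4:54229043-54229342, plus strand: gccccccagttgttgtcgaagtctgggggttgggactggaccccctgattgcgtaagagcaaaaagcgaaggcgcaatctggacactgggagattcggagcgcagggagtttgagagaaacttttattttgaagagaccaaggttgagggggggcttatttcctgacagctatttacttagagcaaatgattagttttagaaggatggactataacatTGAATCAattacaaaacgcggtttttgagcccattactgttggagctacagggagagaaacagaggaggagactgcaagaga
PDGFRB promoter, chr5:150155796-150156095, minus strand: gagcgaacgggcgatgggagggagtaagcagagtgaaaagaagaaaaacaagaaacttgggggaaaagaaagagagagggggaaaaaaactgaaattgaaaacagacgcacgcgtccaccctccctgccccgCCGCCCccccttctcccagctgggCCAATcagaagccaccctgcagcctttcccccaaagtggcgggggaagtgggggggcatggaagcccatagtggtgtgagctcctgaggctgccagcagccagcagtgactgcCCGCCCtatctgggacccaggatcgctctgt
KDR promoter, chr4:55125546-55125845, minus strand: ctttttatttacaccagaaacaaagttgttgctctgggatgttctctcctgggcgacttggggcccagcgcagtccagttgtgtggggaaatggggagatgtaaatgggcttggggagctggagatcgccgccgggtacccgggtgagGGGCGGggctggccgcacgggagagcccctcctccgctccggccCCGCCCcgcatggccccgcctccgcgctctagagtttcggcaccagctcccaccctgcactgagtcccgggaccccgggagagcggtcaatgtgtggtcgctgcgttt
The PDGFRA window held 1 match to TGANTCA, with A at the centre, and 8 CpG dinucleotides. That of PDGFRB held 2 GC boxes, 1 CCAAT and 11 CpG, and that of KDR 2 GC boxes and 22 CpG. Over 35116 promoters of this length the median number of CpG was 14. A match was found in 45.0% of them for GGGCGG, 34.6% for CCAAT, 11.5% for TATAAA, 7.26% for CACGTG and 7.71% for TGANTCA. Among the 9 receptors, MET alone held CACGTG. These matches describe the letters of the windows, and binding was not measured.

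**Figure D3:**
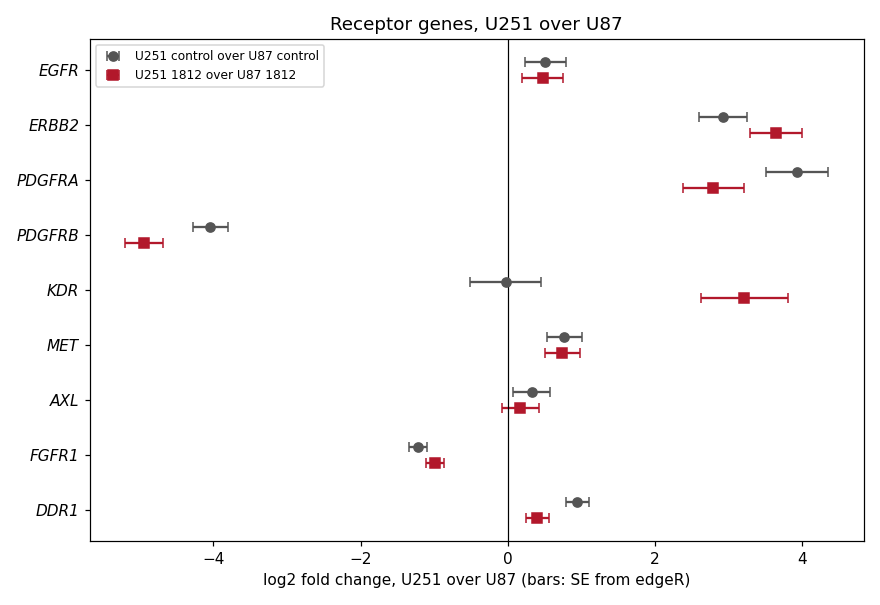
Log2 fold change of 9 receptor genes (horizontal axis, bars give the SE derived from the edgeR test) in U251 over U87, for control cells (circles) and for cells with hairpin 1812 (squares). KIT is left out because U87 1812 had no count. PDGFRA and ERBB2 lie far to the right and PDGFRB far to the left in both comparisons. KDR lies at -0.03 in control and 3.21 with hairpin 1812, and its value in control depended on the control libraries used.

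Of the remaining receptors, MET and DDR1 were higher and FGFR1 was lower in U251. The log2 fold change of MET (ENSG00000105976, chromosome 7, 116672196 to 116798386) between the control groups was 0.77 (SE 0.234, edgeR adjusted p 0.0132). It was 1.50 with control replicate 1 alone, 0.47 without U87 control replicate 1, and it did not pass when these 2 groups were fitted alone (adjusted p 0.115). DDR1, a receptor that binds collagen rather than a soluble factor (ENSG00000204580, chromosome 6, 30876421 to 30900156), had 16.0, 12.4 and 12.2 FPKM in U251 control, against 6.14, 6.66 and 6.71 FPKM in U87 control (log2 fold change 0.94, adjusted p 0.000123). Between the 1812 groups its log2 fold change was 0.40 (adjusted p 0.038), and 4 of the 6 libraries, when left out singly, ended the call (U87 1812 replicates 2 and 3 at 0.37 and 0.33, U251 1812 replicates 1 and 2 at 0.34 and 0.39). FGFR1, a receptor of fibroblast growth factors (ENSG00000077782, chromosome 8, 38400215 to 38468834), had 8.57, 8.33 and 7.92 FPKM in U251 control, against 16.3, 18.1 and 18.8 FPKM in U87 control. Its log2 fold change was -1.22 between the control groups (adjusted p 1.39e-06) and -0.99 between the 1812 groups (adjusted p 1.04e-05). AXL (ENSG00000167601, chromosome 19, 41219223 to 41261766) did not pass, at 0.33 (95% interval -0.21 to 0.86) between the control groups and 0.17 (-0.36 to 0.71) between the 1812 groups. Without U87 control replicate 1 AXL passed, at 0.78 (adjusted p 0.000666).

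For the 4 receptors whose group means spanned at least 2 log2 units, the genes nearest in pattern over the 15 libraries were found by the mean absolute difference of centred log2(CPM + 1). PATJ and GRIK2 were nearest to ERBB2, each at 0.204 log2 units. LZTS1 at 0.227 and RNF150 at 0.267 were nearest to PDGFRA. NPTXR at 0.166 and C3orf52 at 0.202 were nearest to PDGFRB. KDR was followed by the antisense gene FLG-AS1 at 0.241 and by FLG at 0.324.

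In U87 cells, KDR and FGFR1 were lower in the libraries labelled 1812, and no receptor passed as higher. Of all genes tested, 13.6% passed in U87 1812 over U87 control, 5.86% higher and 7.74% lower, beside 2 of the 10 receptors. The median log2 fold change of the 9 receptors other than KIT was -0.22, against -0.03 over all genes tested. KDR had 0.15, 0.16 and 0.16 FPKM in U87 1812, against 0.38, 3.90 and 3.88 FPKM in U87 control. All hairpin libraries lay below all controls, but most of the difference came with control replicates 2 and 3. Its log2 fold change was -3.96 (SE 0.592, edgeR adjusted p 0.00136), and against control replicate 1 alone it was -1.35 (adjusted p 0.00883). FGFR1 had 10.8, 10.4 and 9.32 FPKM in U87 1812, against 16.3, 18.1 and 18.8 FPKM in U87 control. Its 3 controls were alike, and its log2 fold change was -0.70 with all controls (SE 0.123, edgeR adjusted p 0.00313) and -0.74 against control replicate 1 alone (adjusted p 0.00294). Both genes passed whichever of the 6 libraries was left out. Neither passed when U87 1812 and U87 control were fitted alone (adjusted p 0.107 for KDR and 0.108 for FGFR1), a fit in which 1 gene passed.

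For EGFR, MET, ERBB2, PDGFRA and AXL the choice of U87 control library set the result. EGFR had 11.2, 7.99 and 9.11 FPKM in U87 1812, against 5.75, 17.4 and 17.8 FPKM in U87 control, and PDGFRA had 0.21, 0.30 and 0.16 FPKM, against 0.04, 0.34 and 0.37 FPKM. ERBB2 had 0.47, 0.32 and 0.24 FPKM in U87 1812, against 0.29, 1.13 and 0.96 FPKM in U87 control. With all controls none of the 5 passed, and ERBB2 was nearest, at a log2 fold change of -1.07 (edgeR adjusted p 0.0516, DESeq2 adjusted p 0.0159). Against control replicate 1 alone EGFR was higher by 0.65, MET by 0.69 and PDGFRA by 2.31 (edgeR adjusted p 0.0155, 0.0023 and 0.00469), while ERBB2 at 0.20 and AXL at -0.20 did not pass. There 5 receptors passed, where 21.7% of all genes did. Without control replicate 1, EGFR was at -0.72, MET at -0.51, ERBB2 at -1.42 and AXL at 0.89, all past the threshold, and 6 receptors passed where 46.7% of all genes did. PDGFRB had 6.04, 5.17 and 4.71 FPKM in U87 1812, against 5.61, 6.33 and 6.72 FPKM in U87 control (log2 fold change -0.13, 95% interval -0.57 to 0.30, and -0.14 against control replicate 1 alone). DDR1 had 6.52, 5.18 and 5.03 FPKM, against 6.14, 6.66 and 6.71 FPKM (-0.13, 95% interval -0.46 to 0.20, and -0.20 against control replicate 1 alone). KIT had 0 counts in U87 1812, against 3 counts in U87 control. Of 8 tested entries for pericyte and mural markers 4 were lower in U87 1812, beside 7.74% of all genes. ACTA2, the highest of these markers on average, had 4.49, 4.72 and 4.37 FPKM in U87 1812, against 6.88, 33.2 and 33.9 FPKM in U87 control. Most of its difference thus came with control replicates 2 and 3. Other marker lists also held genes that passed. Of 9 tested glioma and astrocyte markers, 1 was higher in U87 1812, as was 1 of 6 endothelial markers, beside 5.86% of all genes. In U251 1812, 2 of the 9 glioma and astrocyte markers were lower, beside 0.582% of all genes. The part of any of the markers in the result was not tested, and in bulk samples fewer cells of a type and less RNA per cell cannot be told apart.

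**Figure D4:**
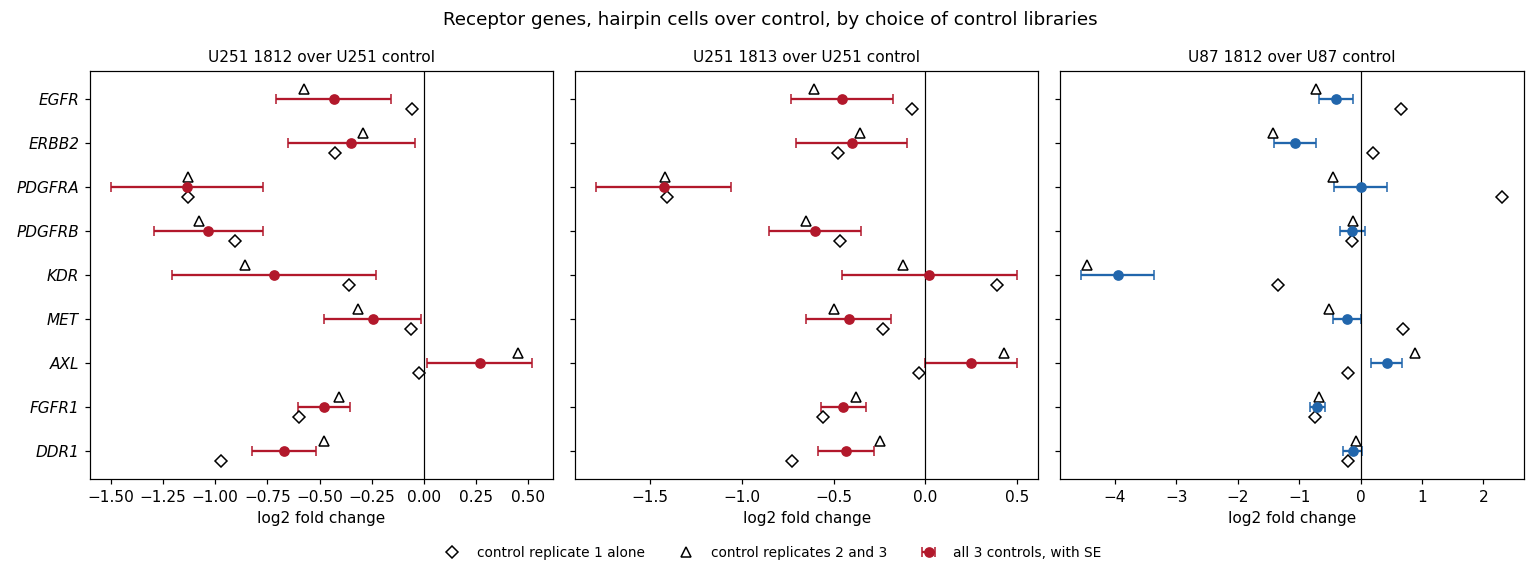
Log2 fold change (horizontal axes, which differ in scale) of 9 receptor genes in hairpin cells over control cells, with all 3 controls (filled circles, bars give the SE), control replicate 1 alone (diamonds) or control replicates 2 and 3 (triangles). FGFR1 in U87 and PDGFRA in U251 stay in place, while several receptors in U87, among them EGFR, ERBB2, MET and AXL, change side between control libraries.

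In U251 cells no receptor passed with either hairpin in the main edgeR fit, that of all 15 libraries with the filter on low counts. Alternative edgeR fits other than the omissions of a library passed 1 to 3 receptors for 1812, all lower, and some passed PDGFRA as lower for 1813. With 1812, 0.992% of all genes passed, 0.410% higher and 0.582% lower, and with 1813, 0.0475% passed. At an unadjusted p under 0.05 there were 4 receptors for each hairpin, where 15.9% of all genes were under it for 1812 and 13.1% for 1813. DESeq2 passed 4 for 1812 (PDGFRA, PDGFRB, FGFR1 and DDR1, all lower, where 4.77% of all genes passed) and 2 for 1813 (PDGFRA and FGFR1, both lower, where 1.54% passed). The median log2 fold change of the 9 receptors other than KIT was -0.48 for 1812 and -0.43 for 1813, against 0.01 and -0.02 over all genes tested. It was alike for the 22 related receptors described further on, at -0.44 and -0.46, and nearer to none for 35 adaptors and relays, at -0.13 and -0.10. The 2 hairpin groups are set against the same 3 control libraries, so that their values are not independent.

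PDGFRA had the lowest values relative to control of the receptors in U251. It had 2.04, 1.65 and 1.71 FPKM in U251 1812 and 1.39, 1.30 and 1.55 FPKM in U251 1813, against 3.81, 4.21 and 4.02 FPKM in U251 control. No library of either hairpin reached a control, and the 3 controls differed by less than the gap. Over control cells the log2 fold change was -1.14 for 1812 (95% interval -1.92 to -0.36, edgeR adjusted p 0.16) and -1.43 for 1813 (-2.21 to -0.64, adjusted p 0.247). Against control replicate 1 alone both passed, at -1.13 and -1.41 (adjusted p 0.0249 and 0.0248), where 1.26% and 0.114% of all genes did.

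DDR1 had 9.19, 8.50 and 7.55 FPKM in U251 1812 and 9.30, 10.1 and 9.18 FPKM in U251 1813, against 16.0, 12.4 and 12.2 FPKM in U251 control. Its log2 fold change was -0.67 for 1812 (SE 0.152, edgeR adjusted p 0.0532) and -0.43 for 1813 (SE 0.152, adjusted p 0.318). In U251 1812 DDR1 passed under each of the 7 alternatives other than the omission of a library, with adjusted p 0.000729 to 0.0467. Against control replicate 1 alone it was at -0.97 (adjusted p 0.00664), and after each omission of a library it was at -0.48 to -0.76 and did not pass. FGFR1 had 6.68, 5.63 and 5.24 FPKM in U251 1812 and 5.63, 6.00 and 5.62 FPKM in U251 1813, against 8.57, 8.33 and 7.92 FPKM in U251 control, a group whose libraries all lay above those of the hairpins. For FGFR1 the log2 fold change was -0.48 for 1812 (adjusted p 0.0776) and -0.45 for 1813 (adjusted p 0.263), and against control replicate 1 alone it was -0.60 and -0.56 (adjusted p 0.0575 and 0.239). PDGFRB, low in this line, had 0.24, 0.24 and 0.11 FPKM in U251 1812 and 0.32, 0.25 and 0.19 FPKM in U251 1813, against 0.36, 0.46 and 0.41 FPKM in U251 control. Its log2 fold change was -1.03 for 1812 (adjusted p 0.0754) and -0.60 for 1813 (adjusted p 0.35).

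The other receptors of U251 differed less or depended on control replicate 1. ERBB2 had 6.07, 4.62 and 4.04 FPKM in U251 1812 and 4.24, 4.73 and 4.66 FPKM in U251 1813, against 6.39, 6.42 and 6.18 FPKM in U251 control, with log2 fold changes of -0.35 and -0.40 (edgeR adjusted p 0.589 and 0.538). EGFR had 13.5, 16.2 and 15.1 FPKM in U251 1812 and 13.0, 14.4 and 14.99 FPKM in U251 1813, against 15.1, 22.7 and 24.0 FPKM in U251 control. Its log2 fold change was -0.43 for 1812 and -0.46 for 1813 (adjusted p 0.458 and 0.455). The log2 fold change of MET was -0.25 for 1812 (95% interval -0.74 to 0.25) and -0.42 for 1813 (-0.92 to 0.08), and that of AXL was 0.27 (-0.27 to 0.80) and 0.25 (-0.29 to 0.78). With control replicate 1 alone EGFR was at -0.06 and -0.08, MET at -0.06 and -0.23, and AXL at -0.03 and -0.04, none of which passed. In FPKM, 6 receptors of U251 1812 had all hairpin libraries below all controls (ERBB2, PDGFRA, PDGFRB, FGFR1, KDR and DDR1), where 13.2% of all genes did. For U251 1813 it was 7 (EGFR, ERBB2, PDGFRA, PDGFRB, MET, FGFR1 and DDR1), where 15.1% of all genes did. On TMM-scaled CPM the number for 1812 was again 6, with MET in place of ERBB2, where 13.7% of all genes were below, and for 1813 it was the same 7, where 12.6% were.

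The hairpins themselves were also compared in U251. No receptor passed in 1812 over 1813 in the main edgeR fit or under DESeq2, where 0.0772% and 0.760% of all genes passed. At an unadjusted p under 0.05 there was also no receptor, where 6.19% of all genes were under it. KDR had the fold change farthest from none, with 1.33, 1.89 and 1.76 FPKM in U251 1812, against 2.63, 2.94 and 2.42 FPKM in U251 1813, and these libraries did not overlap. Over U251 control, at 2.06, 3.14 and 3.16 FPKM, the log2 fold change of KDR was -0.72 for 1812 and 0.02 for 1813 (adjusted p 0.483 and 0.988). Set directly against each other the hairpins gave -0.74 (SE 0.488, adjusted p 0.987). When the 2 hairpin groups were fitted alone, KDR passed (adjusted p 0.0241), where 625 genes did.

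The effect of hairpin 1812 was set between the lines by a test of the difference of the log2 fold changes, U87 minus U251. KDR was the 1 receptor that passed, at -3.24 (SE 0.758, edgeR adjusted p 0.0296), from -3.96 in U87 and -0.72 in U251, where 4.51% of all genes passed. With control replicate 1 alone in both lines the difference was -0.99 (adjusted p 0.133), and it passed the threshold after 1 of the 12 possible omissions of a single library, that of U87 control replicate 1 (-3.74). The differences for PDGFRA at 1.14 and PDGFRB at 0.90 did not pass (adjusted p 0.297 and 0.145), nor did that for FGFR1 at -0.22 (adjusted p 0.551).

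Among the ligands of the receptors, HGF and PROS1 were higher in U87 1812. Of 25 ligand genes tested, 4 were higher (HGF, PROS1, BTC and FGF7) and 5 lower in U87 1812 over U87 control, beside 5.86% and 7.74% of all genes, with a median log2 fold change of -0.31, against -0.03 over all genes. HGF, the ligand of MET, had 2.60, 2.77 and 3.48 FPKM in U87 1812, against 0.65, 0.45 and 0.46 FPKM in U87 control, a log2 fold change of 2.58 (SE 0.264, edgeR adjusted p 0.000383). PROS1, protein S, which activates TYRO3 and MERTK of the AXL family, had 30.4, 25.3 and 29.8 FPKM in U87 1812, against 7.06, 12.1 and 12.6 FPKM in U87 control (log2 fold change 1.54, adjusted p 0.00044). These libraries did not overlap, and against control replicate 1 alone the log2 fold changes were 2.13 for HGF and 1.95 for PROS1, both past the threshold. BTC, betacellulin, a ligand of EGFR, had 1.54, 0.88 and 0.92 FPKM in U87 1812, against 0.34, 0.67 and 0.57 FPKM in U87 control (log2 fold change 1.19, adjusted p 0.00865). FGF7 had 0.57, 0.14 and 0.21 FPKM in U87 1812, against 0, 0.10 and 0.08 FPKM in U87 control (adjusted p 0.0452).

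Among the lower ligands, those named by the rule were TGFA, EGF and EREG, which bind EGFR, and PGF, which binds FLT1. EREG, epiregulin, had 13.6, 9.13 and 9.67 FPKM in U87 1812, against 9.99, 39.5 and 39.0 FPKM in U87 control, a log2 fold change of -1.31 (edgeR adjusted p 0.0306). TGFA had 6.51, 4.16 and 4.06 FPKM in U87 1812, against 6.86, 13.5 and 13.5 FPKM in U87 control (log2 fold change -1.08, adjusted p 0.0134). For PGF the log2 fold change was -1.73 and for EGF -1.87 (adjusted p 0.0143 and 0.0179). None of these 4 passed against control replicate 1 alone, where TGFA was at -0.54, PGF at -0.51, EGF at 0.07 and EREG at 0.05. In U251 1812, VEGFC, a ligand of FLT4 and KDR, was the 1 ligand that passed. It had 35.8, 33.5 and 34.4 FPKM in U251 1812, against 17.6, 20.7 and 20.4 FPKM in U251 control (log2 fold change 0.84, adjusted p 0.0237). Its log2 fold change was 0.82 to 0.88 after each omission of a library, while the adjusted p was above 0.05 after 5 of the 6, all but that of U251 control replicate 1. No ligand passed in U251 1813 in the main edgeR fit.

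**Figure D5:**
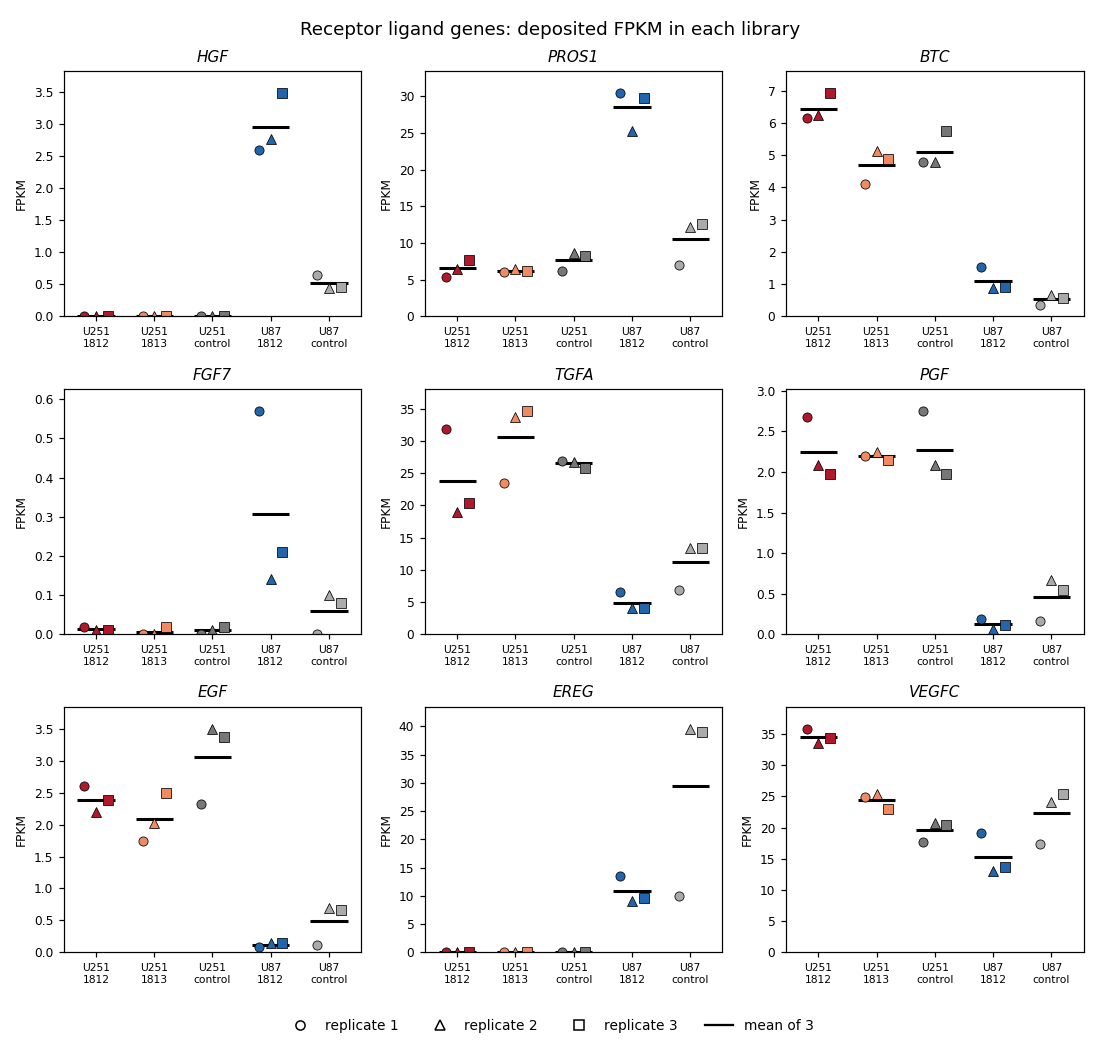
Deposited FPKM (vertical axes, linear, each from 0) of the 9 ligand genes named for the hairpin comparisons in every library, with 1 symbol per replicate and a bar at the mean of 3. HGF and PROS1 are higher in all U87 1812 libraries than in all U87 control libraries, and for EREG the U87 1812 libraries lie near control replicate 1 (circle).

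Of 22 related receptors tested, 2 were higher and 1 was lower in U87 1812 over U87 control, a share near the 13.6% of all genes that passed. Their median log2 fold change was -0.24 there and -0.44 in U251 1812, where none passed. EPHB4, an ephrin receptor, had 1.73, 1.63 and 1.39 FPKM in U87 1812, against 3.33, 3.95 and 3.55 FPKM in U87 control (log2 fold change -1.09, edgeR adjusted p 0.00136), and it was at -1.12 against control replicate 1 alone. ROR1 at 1.14 and ROR2 at 2.57, receptors of WNT5A, were the higher ones, and neither passed against control replicate 1 alone (0.39 and 1.62). Of 12 coreceptors tested 3 were lower in U87 1812 and 1 in U251 1812, beside 7.74% and 0.582% of all genes, with medians of -0.18 and -0.53. FGFRL1, an FGF receptor without a kinase domain, had 0.45, 0.40 and 0.44 FPKM in U87 1812, against 1.08, 5.12 and 4.74 FPKM in U87 control (log2 fold change -2.94, adjusted p 0.00167), and was at -1.39 against control replicate 1 alone. NRP2, a VEGF coreceptor, was at -0.93 and the plexin PLXNB2, which can associate with MET, at -0.79 (adjusted p 0.00751 and 0.00572). NRP2 had 17.5, 11.7 and 11.9 FPKM in U87 1812, against 20.3, 31.8 and 31.9 FPKM in U87 control. PLXNB2 had 17.5, 14.5 and 13.4 FPKM, against 20.3, 32.8 and 31.2 FPKM. For both genes control replicate 1 lay nearest the hairpin libraries. NRP2 was also lower in U251 1812, at -0.96 (adjusted p 0.0324), and at -0.59 against control replicate 1 alone (adjusted p 0.148). There the call also ended after 5 of the 6 omissions of a library, again all but that of U251 control replicate 1.

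Of 35 adaptors and relays tested, 1 was higher and 7 were lower in U87 1812, beside 5.86% and 7.74% of all genes. PIK3CB, a catalytic PI3K subunit, was at 0.60 (edgeR adjusted p 0.00848), and the lower genes named by the rule were the docking protein IRS1 at -1.23 and the adaptors CRK, CRKL and NCK2 at -0.47, -0.47 and -0.63. IRS1 had 6.79, 8.37 and 8.09 FPKM in U87 1812, against 7.84, 25.7 and 26.5 FPKM in U87 control, and against control replicate 1 alone it was at -0.07 (adjusted p 0.774). Of 22 negative regulators, 2 were higher, LRIG3 at 0.84 and SH2B3, which codes for the adaptor LNK, at 0.71 (adjusted p 0.0125 and 0.0143), and with control replicate 1 as the sole control LRIG3 was at 0.73 and lost its call (adjusted p 0.0702). Of 11 genes of receptor shedding, BACE2 was higher at 0.49 (adjusted p 0.0298), with 0.33 against control replicate 1 alone (adjusted p 0.185). Both lists had a smaller share of passing genes than the 13.6% over all genes. None of these 3 lists held a gene that passed in U251 1812 or U251 1813 over U251 control in the main edgeR fit. In U251 1812 over 1813, TIMP3, an inhibitor of sheddases, was the 1 gene that passed from the lists other than the cell type markers (log2 fold change -1.40, edgeR adjusted p 0.0179). Of the glioma and astrocyte markers, 1 also passed there, as lower.

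Between the lines PDGFD, PDGFB, EREG and HGF were among the ligands that differed. Of the 25 ligands, 10 were higher and 5 lower in U251 control over U87 control, beside 24.0% and 26.0% of all genes. PDGFD, a ligand of PDGFRB, had 3.44, 2.92 and 2.86 FPKM in U251 control and was listed at 0 in all U87 control libraries, the line with the higher PDGFRB. PDGFB, which binds both PDGF receptors, had 0.74, 1.59 and 1.60 FPKM in U251 control and was also listed at 0 in all U87 control libraries. EREG had 0.04, 0.05 and 0.03 FPKM in U251 control, against 9.99, 39.5 and 39.0 FPKM in U87 control, and HGF had 0.01 FPKM in each U251 control library, against 0.65, 0.45 and 0.46 FPKM in U87 control. VEGFA, the main ligand of KDR, was lower in U251 control, with a log2 fold change of -1.40 (edgeR adjusted p 0.000184).

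Of the 22 related receptors, 12 were higher and 7 lower in U251 control over U87 control, beside 24.0% and 26.0% of all genes. Their median log2 fold change was 1.44. EPHB4 was higher, at 1.77 (edgeR adjusted p 3.76e-07), and CSF1R, the receptor of macrophage colony-stimulating factor, was lower, at -3.27 (adjusted p 5.29e-07). FGFR2 had 0.54, 0.48 and 0.52 FPKM in U251 control, against 0, 0.01 and 0.02 FPKM in U87 control, the line with the higher FGFR1. Among the 12 coreceptors tested, 3 were higher and 4 lower. The proteoglycan GPC4 had 21.5, 24.5 and 24.2 FPKM in U251 control, against 0, 0.01 and 0.03 FPKM in U87 control, and CSPG4, the proteoglycan NG2, was lower in U251 control, at -5.66 (adjusted p 4.31e-09). Of the 35 adaptors and relays, 8 were higher and 12 lower, with GAB2 at 1.50 and the kinases SRC and MAPK3 at -1.24 and -1.63. Of the 22 negative regulators tested, 7 were higher and 6 lower. Of the 11 genes of shedding, 3 were higher and 2 lower, with ADAM19 at 2.64 and TIMP3 at -4.33. Apart from the related receptors, these lists had shares of passing genes near the 50.0% over all genes.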

How the data were processed

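Per the labels' protocols, libraries were random-primed from rRNA-depleted total RNA and strand-marked with dUTP; several extraction reagents and sequencers are listed, unassigned to libraries. The tools were, per the submitters' processing notes, bcl2fastq 2.17.1.14, cutadapt 1.9.1, HISAT2 2.0.1, HTSeq 0.6.1, bedtools 2.17.0 and DESeq2, with GRCh38. Raw read counts and FPKM per gene were deposited by the authors (counting strand not given in the sources used here), and FPKM recomputed from counts and exonic lengths matched within 0.005.

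Counts were tested with edgeR 4.0.16 in R 4.3.3: TMM scaling, filterByExpr, quasi-likelihood tests, two-sided, all 15 libraries in 1 fit of 5 group means (16841 genes, 10 residual degrees of freedom), Benjamini-Hochberg adjustment over all genes within each of 7 comparisons, and a threshold of 0.05 with no fold limit. All 10 receptors passed the filter, KIT through the U251 groups at a mean of 0.439 CPM. SE is that of the log2 fold change, levels are deposited FPKM, and p-values measure the spread between libraries, since the labels do not say that replicates are separate cultures. Intervals and floors from counts cover counting error only. The members, lists and tests were chosen with earlier results of these data known. The naming rule takes all members, LAMP2 and, per list and hairpin or between-line comparison, up to 4 passing genes in each direction with the smallest adjusted p, of which the text gives part for the lines; ACTA2, VIM and AQP4 were named after their values were seen. The scripts were tested on simulated counts. Alternatives were DESeq2 1.42.0, its size factors in edgeR, no filter, a replicate block, a term for the 4 control libraries that stood apart, control replicate 1 alone (a lone sample, assumed to vary like the other groups), fits of only the groups compared, and leaving out each library. Those of the lists and of LAMP2 were added after seeing the data.

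Replicate numbers are in the labels. Deviations from group means correlated over 0.1 in every same-numbered pair for U251 1813 and U251 control (0.197 to 0.389) and for U251 control and U87 control (0.263 to 0.422). The same held for U251 1813 and U87 control (0.102 to 0.193), which are different lines. Of the 3 U251 control libraries, 2 correlated best with the same-numbered U87 control library. Replicates 2 and 3 of both control groups stood apart from replicate 1, and a pairing cannot be told apart from that split. The replicate block changed no receptor's call in U251 1813 over control or in U251 control over U87 control.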

Additional observations from a re-analysis of the deposited data

Results flagged for a closer look

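The effect of hairpin 1812 on KDR differed between the lines by a test of the difference itself. The log2 fold change over control cells was -3.96 in U87 and -0.72 in U251, and the difference was -3.24 (SE 0.758, edgeR adjusted p 0.0296). All 3 U87 1812 libraries were below all 3 U87 control libraries, and the same held in U251. The value moves with the U87 control libraries, which had 0.38 FPKM in replicate 1 and 3.90 and 3.88 FPKM in replicates 2 and 3. With control replicate 1 alone in both lines the difference was -0.99 (adjusted p 0.133).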

How the results depend on the processing

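The counts of passing genes depended on the fit, and the fold changes of several receptors depended on the control libraries used. With DESeq2, 4 receptors and 804 genes passed in U251 1812 over control, 2 and 260 in U251 1813 over control, 128 genes in 1812 over 1813, and 2 and 1562 in the difference of the 1812 effects. DESeq2 size factors in edgeR gave 1 receptor in U251 1812. With no filter on low counts, 3 receptors and 717 genes passed in U251 1812, 1 and 461 in U251 1813, and 122 genes in 1812 over 1813. The term for the 4 control libraries that stood apart gave 2 receptors and 529 genes in U251 1812, 34 genes in U251 1813, 113 in 1812 over 1813, and 2 and 2364 in the difference. Control replicate 1 alone gave 5 receptors and 3804 genes in U87 1812, 2 receptors in U251 1812, 1 and 20 in U251 1813, 1 and 249 in 1812 over 1813, and 3 and 1693 in the difference. Fits of only the groups compared gave 0 receptors and 1 gene in U87 1812, 2 and 834 in U251 1812, 1 and 50 in U251 1813, 1 and 625 in 1812 over 1813, 5412 genes between the control lines, and 0 and 331 in the difference. The cause of these shifts was not tested.

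With the replicate block, 3 receptors (PDGFRB, FGFR1 and DDR1) and 324 genes passed in U251 1812 over control, where same-numbered libraries correlated at 0.096 to 0.206 and each of the 3 libraries correlated best with its own number, a hint from the data and not the design. In U87 1812 over control the correlation was -0.092 to 0.123. EREG in U87 1812 also lost its call under the block (adjusted p 0.0505). The block changed no other receptor's call.

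Leaving out 1 library moved the genes that passed to 889 to 8152 in U87 1812, 14 to 506 in U251 1812, 2 to 280 in U251 1813, 0 to 4 in 1812 over 1813 and 229 to 3905 in the difference. For receptors the range was 2 to 6 in U87 1812, with 6 without U87 control replicate 1, and 0 to 2 in the difference.

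Against control replicate 1 alone the direction of a value that passed in either fit turned in U87 1812 over control for EGFR (0.652), MET (0.69), EGF (0.0734) and EREG (0.05), and in U251 control over U87 control for KDR (2.22) and NRP1 (0.132). Counts of KIT, of FGF7, and of PDGFRA and KDR in U87 limit the precision of their fold changes. KDR had 16, 19 and 15 counts in the U87 1812 libraries. No paired or leave-one-out fit separates the labelled groups from the difference among control libraries, since replicates 2 and 3 of the controls have no hairpin libraries of their kind.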
